A study of Homo sapiens with 4 samples.

Results

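This account covers 1547 regions of open chromatin whose point of highest accessibility, the summit, lay at a different place after tunicamycin than after DMSO. The cells were HCT116, a human line from a colorectal cancer, of wild-type genotype, kept for 6 h in 0.5 µg/ml tunicamycin or in 0.1% DMSO, the solvent. ATAC-seq, which uses a transposase to put sequencing adapters into accessible DNA, was run on 2 libraries of 50000 cells per treatment, biological replicates by the series' own words. The submitters deposited 1 list of peaks per library on hg19, with the summit of each peak. Every library came from 1 cell line at 1 time, and no other genotype is part of these lists.

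Members were chosen in 3 steps. Peaks of the 4 lists that shared at least 1 bp were merged into 78788 regions, of which 38731 held exactly 1 peak in each list. Members were selected on the summit positions: a region of this kind was taken where the tunicamycin summits both lay above, or both below, the 2 DMSO summits in coordinate, with a gap of at least 30 bp between the groups. The gap is the distance between the nearest pair of summits from different treatments. This gave 1547 regions, or 3.99% of the 38731. Their number, gaps and directions are therefore descriptions of what the rule selected and carry no test. The same rule was applied to the other 2 ways of pairing the libraries, in which each pair joins 1 tunicamycin and 1 DMSO library, as the background that belongs to the rule.

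In an accessible region nucleosomes are depleted or loosely held, often because transcription factors occupy the DNA, and the transposase cuts most often in the free DNA beside the bound proteins and between nucleosomes. The summit is the single position where the reads pile up highest, so in a region with several maxima of near equal height it is the highest of them. Tunicamycin stops the assembly of the N-linked sugar chain. Glycoproteins in the endoplasmic reticulum then fold poorly, and cells answer with the unfolded protein response, with transcription driven by factors such as ATF6, XBP1 and ATF4. No hg19 annotation or genome sequence was used here, so regions are given by position, without genes or bases.

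Summits lay about as far apart between treatments as between replicates. Over the 38731 regions, the summits of tunicamycin replicates 1 and 2 were 26.8 bp apart on average (median 17 bp), and those of DMSO replicates 1 and 2 were 27.8 bp apart (median 18 bp). For the 4 pairs of a tunicamycin and a DMSO library the mean distance was 27.2 to 27.8 bp, with a median of 18 bp in each. The pairs across treatments were thus close to the pairs within a treatment. A distance of 30 bp or more occurred in 29.6% of regions between the tunicamycin libraries, in 31.4% between the DMSO libraries and in 30.6% to 31.5% across treatments.

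**Figure D1:**
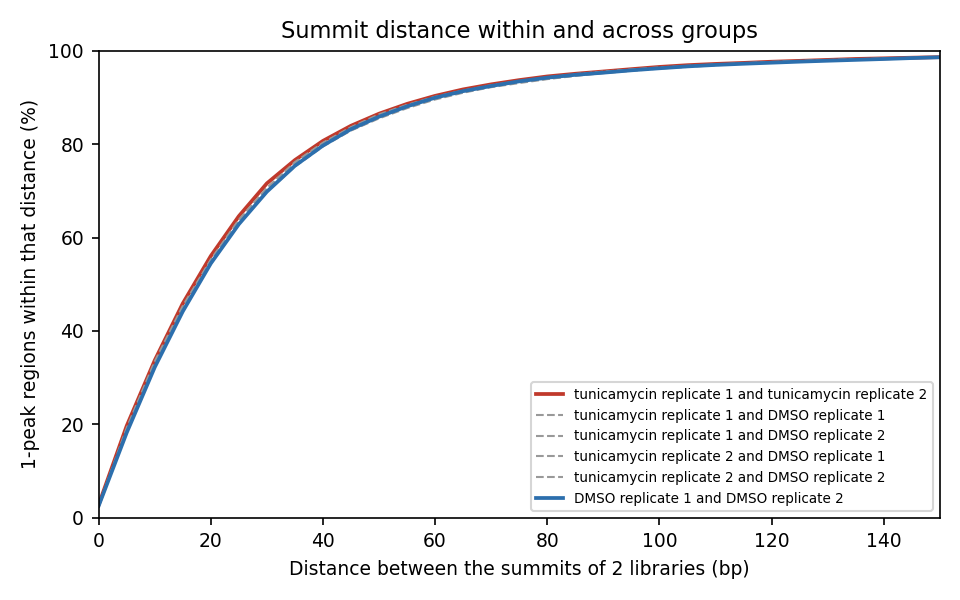
The x axis is the distance between the summits of 2 libraries in bp, and the y axis is the percentage of the 38731 regions with exactly 1 peak per library that lie within that distance. The red line is the pair of tunicamycin libraries, the blue line the pair of DMSO libraries and the dashed grey lines the 4 pairs across treatments. All 6 lines nearly coincide.

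The number of shifted regions was close to its background. The treatment split gave 1547 regions. Grouping tunicamycin 1 with DMSO 1 against tunicamycin 2 with DMSO 2 gave 1455 (3.76%), and grouping tunicamycin 1 with DMSO 2 against tunicamycin 2 with DMSO 1 gave 1467 (3.79%). The treatment split thus exceeded the mean of the other splits, 1461, by 86 regions, or 5.56% of the members, a ratio of 1.06. Which members make up such an excess cannot be told from the positions alone. A region can be separated along 1 split only, so the 3 numbers are not independent.

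A wider gap raised this ratio somewhat and then lost it. With a gap of at least 50 bp there were 631 regions in the treatment split, against 549 and 554 in the others, a ratio of 1.14. At 75 bp the numbers were 297 against 259 and 239, the highest ratio among the limits tried, 1.19. At 100 bp they were 164 against 150 and 145. From 150 bp on the treatment split no longer stood above both of the others, with 56 against 61 and 53, and at 200 bp with 18 against 18 and 20. Regions with the tightest replicates showed no excess either. Where the libraries of each pair lay within 10 bp of each other, 275 regions were shifted in the treatment split, against 285 and 273 in the other splits.

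**Figure D2:**
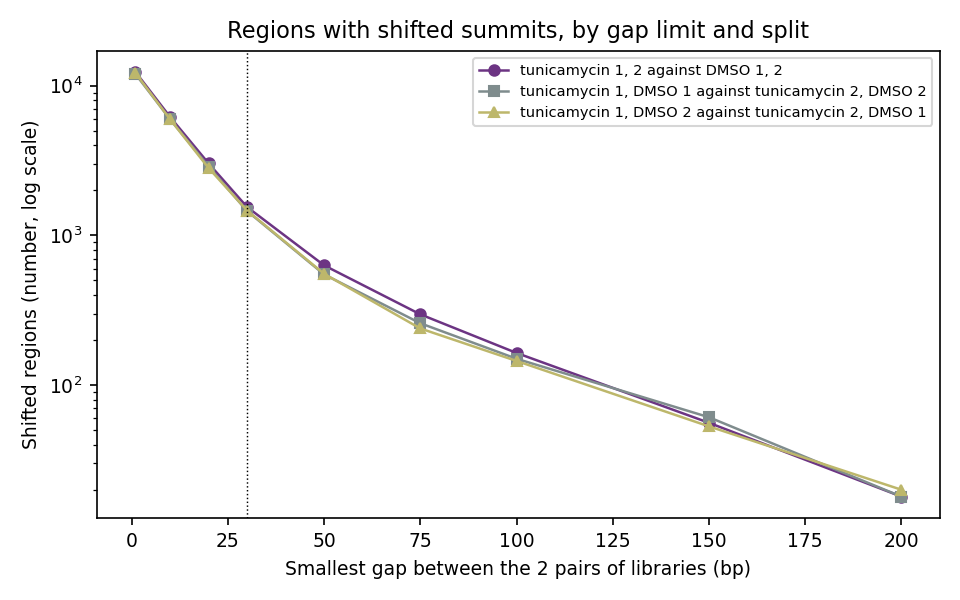
The x axis is the smallest gap between the pairs of libraries in bp, and the y axis is the number of shifted regions on a log scale. Circles are the treatment split, squares and triangles the other 2 splits, and the dotted line marks the limit of 30 bp, where the numbers are 1547, 1455 and 1467. The lines run together, with the treatment split slightly above the others at limits from 1 to 100 bp.

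Most shifts were short. The median gap of the members was 44 bp, with quartiles of 35 and 65.5 bp, and 916 of them (59.2%) had a gap under 50 bp. In the other splits the median gap was 43 bp in both, and the largest gaps were 328 and 323 bp, beside 413 bp in the treatment split. The replicates of a member differed too: the larger of the 2 within-treatment distances had a median of 24 bp, and it was smaller than the gap in 1214 members (78.5%), beside 78.3% and 77.8% in the other splits. At the limit itself, 153 members had a gap of 30 to 31 bp and 218 regions missed it with 28 to 29 bp. The summit pileup is the height of the peak at its summit, recovered from the deposited fold and p-value. It is given in reads, although the sources used here do not say whether reads, fragments or extended cut sites were piled up. Both sets had a median pileup of 17.5 reads, and median widths of 182 bp inside and 189 bp outside the limit.

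At the limit of 30 bp the shifts had no common direction along the chromosome. Tunicamycin summits lay at the higher coordinate in 772 members (1.99% of the 38731 regions) and at the lower coordinate in 775 (2.0%). In the other splits the first pair lay higher in 1.93% and 1.98% of regions and lower in 1.83% and 1.81%. With a gap of at least 50 bp the balance was less even, with 288 members higher and 343 lower. There the other splits gave 280 higher and 269 lower, and 291 higher and 263 lower. Coordinates run along the reference strand, so this says nothing of the direction relative to a gene. Nor did the summits move inward or outward as a set. The tunicamycin summits were nearer the centre of the region in 795 members, the DMSO summits in 747, and 5 were tied. The median distance of the summits from the centre was 37 bp after tunicamycin and 39.5 bp after DMSO. In 1208 members (78.1%) the summits of the treatments lay on opposite sides of the centre. Neither this share nor the counts of nearer summits were taken for the other splits. Whether they differ from the background of the rule was therefore not tested.

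The open interval itself stayed largely in place. In 1296 members (83.8%) all 4 summits lay inside all 4 peaks, so that each library listed as open the position that was highest in every other library. The same held for 83.6% and 82.7% of the regions shifted in the other splits. The midpoint of the peak moved little, by a median of 5 bp in the direction of the summit shift, against 4.5 and 4.75 bp in the other splits. Peak midpoints were separated between treatments in the direction of the summit in 436 members (28.2%) and in the opposite direction in 166 (10.7%). The corresponding shares were 26% and 10.2% in one of the other splits and 27.3% and 9.13% in the other. In 9 members both tunicamycin summits lay outside both DMSO peaks, and in 6 both DMSO summits lay outside both tunicamycin peaks. The same counts were 10 and 15 in one of the other splits and 9 and 9 in the other, so the treatment split did not stand above them.

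Only 1 member met both conditions, against 1 and 0 regions in the other splits. It was a region at chr1:7831235-7831748, chosen for mention after its values had been seen. Its summits lay 111 and 137 bp from its start in tunicamycin replicates 1 and 2, against 334 and 339 bp in DMSO replicates 1 and 2. The summit pileup was 5 and 7 reads after tunicamycin and 5 and 8 after DMSO. Heights thus overlapped between treatments, and all 4 peaks were weak.

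The members were wide and of middling strength. Their peaks had a median mean width of 211 bp, beside 180 bp over all 38731 regions, and a median mean summit pileup of 15.8 reads, beside 19.2 reads. By library the median pileup of the members was 16 and 18 reads after tunicamycin and 15 and 16 reads after DMSO. Over all 38731 regions it was 19 and 21 reads after tunicamycin and 18 and 19 after DMSO. Their median percentile rank in the whole lists, by the caller's q-value, was 49.6, beside 62.5. The regions shifted in the other splits had nearly the same profile, with median widths of 207 and 204 bp, pileups of 16 and 15.8 reads and ranks of 49.5 and 47.7. The weakest member, at chr13:22187999-22188162, chosen for mention after its values had been seen, had pileups of 4 and 4 reads after tunicamycin and 4 and 3 after DMSO, with a gap of 41 bp.

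The share of regions that were shifted varied with width and strength in every split. In the treatment split 2.05% of regions with a mean peak width under 150 bp were shifted, and this share grew with each width class up to 8.67% of regions of 400 bp or more. A summit cannot move farther than its region is long, and no region under 150 bp had a gap of 100 bp. Strong regions were shifted less often: 8.38% of regions below the 25th percentile rank were members, against 2.40% of those above the 75th. The other splits ran in parallel, with 8.31% and 8.74% below the 25th percentile rank and 2.32% and 2.17% above the 75th. By width they ran from 1.92% and 2.09% in the narrowest class to 6.68% and 6.59% in the widest.

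The treatment split stood apart most in the widest regions. Among the 1153 regions of 400 bp or more, 100 were shifted, against 77 and 76 in the other splits, a ratio of 1.31. From 300 to under 400 bp the numbers were 200 against 175 and 166, a ratio of 1.17. Below 200 bp the treatment split gave 206 and 475 regions in its 2 classes. The other splits gave 193 and 479, and 210 and 492. The width classes were set with earlier results of these data known, and these numbers carry no test.

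**Figure D3:**
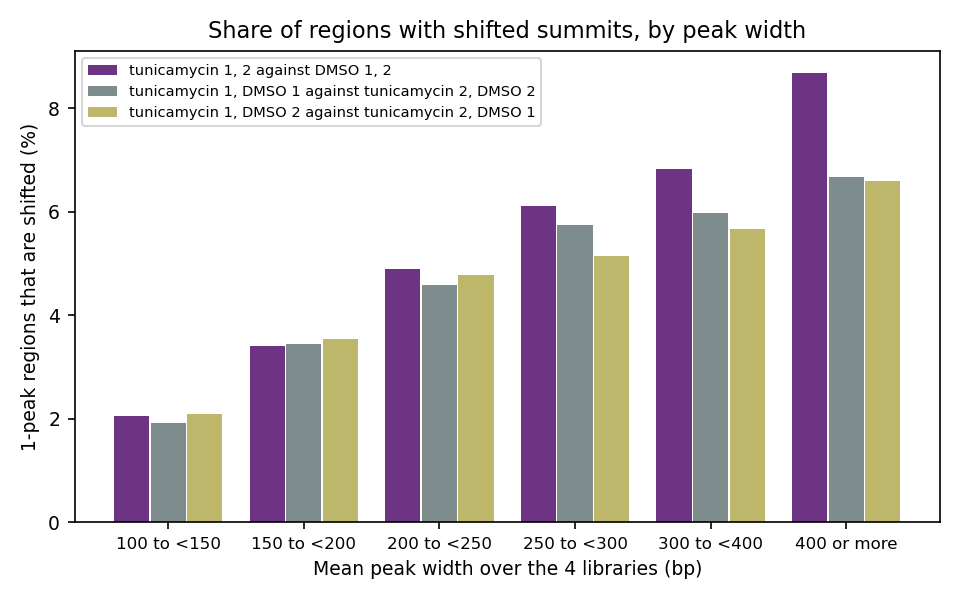
The x axis is the class of mean peak width over the 4 libraries in bp, and the y axis is the percentage of 1-peak regions that are shifted. Each class has a bar for the treatment split, at the left, and 1 for each of the other splits. The bars rise together from about 2% to over 6%, and the treatment split is highest in the 4 classes from 200 bp on, reaching 8.67%.

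Members were spread over all 23 chromosomes in the lists. The share of 1-peak regions that were members was lowest on chromosome 21 (11 of 387, 2.84%) and highest on chromosome 4 (81 of 1608, 5.04%), where the other splits gave 53 and 59 regions. On chromosome X 16 regions were members, fewer than the 30 and 35 of the other splits. Of consecutive members, 20 pairs lay within 10000 bp, and 9 of these pairs shifted the same way. The other splits gave 16 such pairs with 8 shifting the same way, and 21 with 14.

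The longest shifts lay in long regions, with the summits of the treatments toward opposite ends. The longest, at chr2:70417763-70418396, had summits 528 and 526 bp from its start in tunicamycin replicates 1 and 2, against 113 and 103 bp in DMSO replicates 1 and 2. The replicates of either treatment thus lay within 10 bp of each other and the treatments 413 bp apart. Its peaks were 618 and 634 bp wide after tunicamycin and 618 and 605 bp after DMSO, with pileups of 42 and 47 reads after tunicamycin, against 40 and 43 after DMSO. The pileups of the treatments overlapped. The summits are separated in every member by the rule, so their separation here is no finding of its own.

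A region at chr19:55850583-55851313 was the only one among the 10 longest shifts that was also among the 10 highest in rank. Its summits lay 239 and 227 bp from its start after tunicamycin and at 600 bp in both DMSO libraries, a gap of 361 bp. The pileup was 79 and 83 reads after tunicamycin and 68 and 83 after DMSO, so the groups overlapped in height. The third, at chr14:105218914-105219544, had summits at 433 and 418 bp after tunicamycin, against 88 and 86 bp after DMSO. Its pileups were 48 and 55 reads after tunicamycin and 53 and 54 after DMSO.

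Replicates were less alike in some of the long shifts. At chr8:124428424-124429067 the summits lay at 173 and 171 bp after tunicamycin, against 485 and 593 bp after DMSO, so the DMSO libraries alone differed by 108 bp. A region at chr5:118788013-118788560 had summits at 63 and 103 bp after tunicamycin and at 363 and 414 bp after DMSO, with pileups of 18 to 24 reads over the 4 libraries. At chr19:47693477-47693938 they lay at 413 and 381 bp after tunicamycin, against 69 and 71 bp after DMSO. The other 4 of the 10 longest had gaps of 231 to 264 bp. They lay at chr8:8559096-8559521, chr1:235132976-235133394, chr15:63892886-63893279 and chr6:42981572-42982077. The chromosome 1 region was the only one of the 10 in which a summit fell outside a peak of another library: its peak was 400 and 413 bp wide after tunicamycin, and 391 and 189 bp after DMSO.

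**Figure D4:**
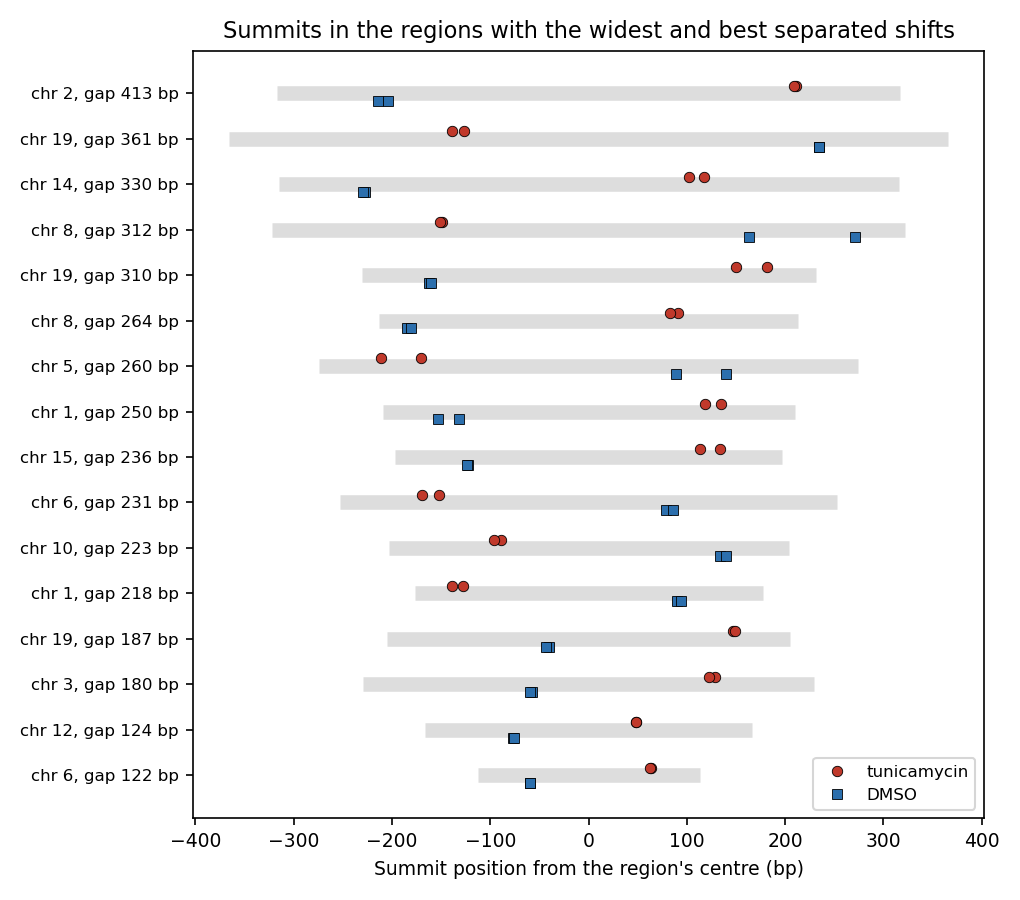
The x axis is the position of the summit from the centre of its region in bp, and each row is 1 of the 16 regions with the longest gaps or the largest gap relative to the spread of replicates. Red circles are the 2 tunicamycin libraries, blue squares the 2 DMSO libraries, and the grey bar is the region. The treatments sit on opposite sides of the centre in every row, with gaps of 122 to 413 bp, and the DMSO libraries of the chromosome 8 region with a gap of 312 bp lie 108 bp apart.

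Other shifts were shorter but had replicates that nearly coincided. At chr12:56435339-56435670 both tunicamycin summits lay 214 bp from the start of the region, against 89 and 90 bp in the DMSO libraries. The pileup there was 42 and 45 reads after tunicamycin and 38 and 48 after DMSO. At chr19:16222325-16222734 the summits lay at 352 and 354 bp after tunicamycin, against 165 and 162 bp after DMSO, with pileups of 41 and 44 reads after tunicamycin and 38 and 46 after DMSO. Both regions thus held a gap over 100 bp with replicates at most 3 bp apart and heights that overlapped between treatments. They were picked for such gaps, which the other splits held too. A gap of at least 100 bp with the libraries of each pair within 10 bp occurred in 24 regions of the treatment split. The other splits gave 31 and 18 such regions. A weaker case, at chr6:43603426-43603651, had summits at 176 and 175 bp after tunicamycin, against 53 bp in both DMSO libraries. It carried only 9 and 13 reads after tunicamycin and 8 and 7 after DMSO. At chr10:42970681-42971087 the gap was 223 bp, at chr3:23987296-23987754 it was 180 bp and at chr1:25664791-25665144 it was 218 bp.

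The members of high rank were not set apart by short gaps. A gap of at least 100 bp occurred in 40 of the 306 members above the 75th percentile rank. In the lower rank classes, from the weakest up, it occurred in 26 of 237, 50 of 546 and 48 of 458 members. The 10 members with the highest rank included the chromosome 19 region with the 361 bp gap, and the other 9 had gaps of 30 to 95 bp. The first, at chr10:101418904-101419318, had pileups of 95 and 103 reads after tunicamycin and 100 and 97 after DMSO. Its summits lay at 173 and 182 bp after tunicamycin, against 239 and 222 bp after DMSO, a gap of 40 bp. At chr16:89556920-89557388 the summits lay at 231 and 250 bp after tunicamycin and at 323 and 329 bp after DMSO, a gap of 73 bp. A region at chr14:102414346-102414739 had summits at 165 and 186 bp after tunicamycin, against 281 and 285 bp after DMSO, a gap of 95 bp. In 3 of the remaining 6, at chr10:121651995-121652297, chr11:66313438-66313798 and chr2:48541285-48541633, replicates of at least 1 treatment lay at least the gap apart. In the chromosome 10 region replicates lay 46 bp apart after tunicamycin and 34 bp after DMSO, against a gap of 33 bp. At chr5:149877217-149877467 the gap was 32 bp and the tunicamycin replicates lay 30 bp apart. The last 2, at chr12:54121227-54121573 and at chr19:50269600-50270225, had gaps of 30 and 61 bp.

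Few members differed in strength. The q-values of each list were ranked over the 38731 regions, ranks were mapped to a normal distribution (normal scores), and limma compared the treatments over all regions at an adjusted p of 0.05. Of the members, 0 were called higher and 2 lower in rank after tunicamycin, beside 13 higher (0.0336%) and 6 lower (0.0155%) among all regions, 0.0491% together. With 1 prior spread for all regions limma called 0 regions, with 2694 at an unadjusted p under 0.05, and without tunicamycin replicate 1 it called 0 higher and 3 lower. Without tunicamycin replicate 2 it called 1 higher and 8 lower, so neither the number of calls nor their balance was stable. The comparison comes from the same contrast as the rule and is given as a description. The median score difference was -0.01 for the members and 0.00 for all regions. At an unadjusted p under 0.05 limma gave 115 members (7.43%), against 7.36% of all regions. The tunicamycin ranks were both higher than either DMSO rank in 289 members (18.7%), against 17.9% of all regions, and both lower in 315 (20.4%), against 18.3%.

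Peak width gave no calls. Unlike ranks, widths leaned toward wider peaks after tunicamycin, in the members as in all regions, but mostly in tunicamycin replicate 2. Over all regions the median width was 179 and 185 bp in tunicamycin replicates 1 and 2, against 178 and 179 bp in DMSO replicates 1 and 2. For the members these medians were 212 and 217 bp, against 208 and 211 bp. For log2 width limma called 0 members and 0 regions in all (0.0%), with 112 members (7.24%) and 6.06% of all regions at an unadjusted p under 0.05. The lowest adjusted p of a member was 0.438. The median difference in log2 width was 0.02 both for the members and for all regions. Both tunicamycin peaks were wider than both DMSO peaks in 314 members (20.3%), against 20.1% of all regions, and narrower in 209 (13.5%), against 13.5%.

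A region at chr5:148442595-148442937 had both a shifted summit and a called fall in rank. Its pileup was 27 and 23 reads in tunicamycin replicates 1 and 2, against 45 and 56 reads in DMSO replicates 1 and 2. Its summits lay 138 and 80 bp from its start after tunicamycin and 219 and 237 bp after DMSO, so the groups were separated by 81 bp while the tunicamycin libraries differed by 58 bp. Among the 38731 regions it stood at percentile ranks of 67.4 and 41.6 after tunicamycin and 93.8 and 97.5 after DMSO, a score difference of -1.63 ± 0.30 (SE, limma adjusted p = 0.00384). The peak kept its width, with 282 and 326 bp after tunicamycin and 333 and 322 bp after DMSO. The call was lost in limma without tunicamycin replicate 2 (adjusted p = 0.159) and without DMSO replicate 2 (adjusted p = 0.148), and over 10 settings the adjusted p ran from 0.000379 to 0.476.

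The other called member lay at chr16:56965778-56966234. Its pileup was 22 and 30 reads after tunicamycin, against 42 and 50 reads after DMSO, and its percentile ranks were 41.8 and 57.4 after tunicamycin and 91.2 and 95.0 after DMSO. The score difference was -1.51 ± 0.31 (SE, limma adjusted p = 0.0164). Here the peaks were wider after tunicamycin, at 454 and 397 bp, than after DMSO, at 321 and 336 bp. The difference in log2 width, 0.37 ± 0.10 (SE, limma adjusted p = 0.744), was not called. Both tunicamycin peaks were wider than both DMSO peaks in 20.1% of all regions. Its summits lay at 246 and 314 bp after tunicamycin and at 157 and 193 bp after DMSO, a gap of 53 bp with replicates up to 68 bp apart. The call was lost without tunicamycin replicate 1 (limma adjusted p = 0.324), without DMSO replicate 1 (limma adjusted p = 0.0553) and without DMSO replicate 2 (limma adjusted p = 0.224). Over 10 settings its adjusted p ran from 0.00405 to 0.487. In both called members the summit pileups of the treatments did not overlap, but both were picked for a fall in rank. Both tunicamycin ranks lay below both DMSO ranks in 18.3% of all regions. The same share was not taken for pileups.

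**Figure D5:**
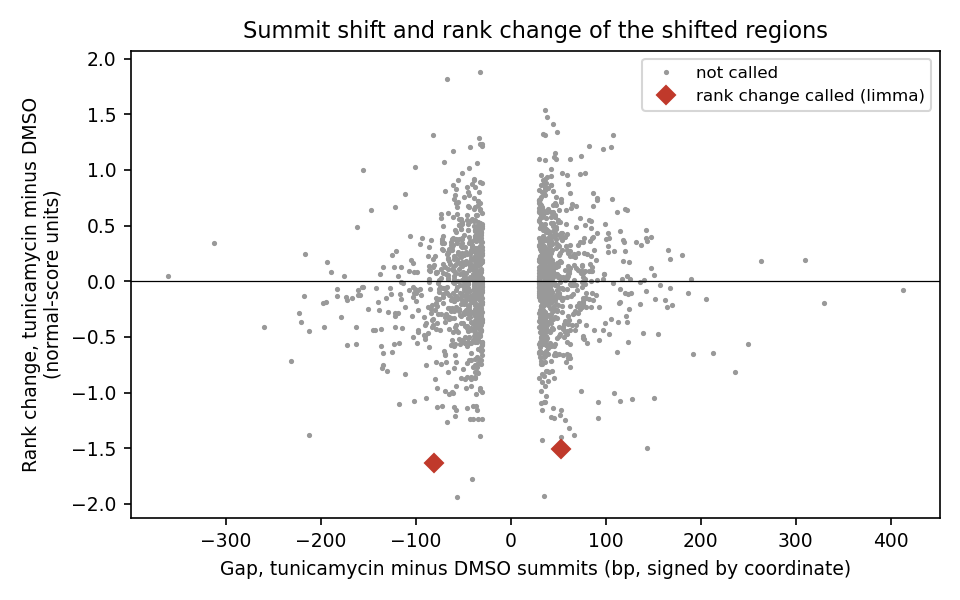
The x axis is the signed gap in bp, positive where the tunicamycin summits lie at the higher coordinate, and the y axis is the rank change in normal-score units, tunicamycin minus DMSO. Grey points are the members without a called rank change and red diamonds are the 2 called, at gaps of -81 and 53 bp and changes of -1.63 and -1.51. Points lie above and below 0 on both sides, and no member lies between gaps of -30 and 30 bp by the rule.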

How the data were processed

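ATAC-seq peaks of 4 HCT116 libraries were used. The submitters' processing notes name MACS2 2.2.7.1, deepTools, Picard 2.18.23, Bowtie2 2.3.5.1, SAMtools, Trim Galore and the hg19 build. Order, settings and any shift for the transposase offset are not given in these sources. For each peak the authors deposited its position, a score, a fold (a ratio to local background within the library), −log10 p- and q-values, and the summit's distance from the start. These folds and values are the authors' own.

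Summits are the start plus that distance. The summit pileup was recovered from the deposited fold and −log10 p-value, within 0.001 for 100% of peaks. Read totals were not used, so depth is unknown. The lists held 58467 and 62526 peaks after tunicamycin and 56581 and 56566 after DMSO. The smallest listed width was 100 bp.

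Regions were merged and described with Python 3.11.15 (numpy 2.4.6, pandas 2.3.3). Ranks and log2 widths were fitted in R 4.3.3 by limma 3.58.1, using a mean-dependent prior variance and Benjamini-Hochberg adjustment over 38731 regions. Merging and fits were tested on simulated data. The members, classes and lists were chosen with earlier results of these data known. Regions named are the 10 with the longest gap, the 10 of highest mean percentile rank, the 10 with the largest gap over 10 bp plus the larger replicate distance, and those called by limma. The weakest member and the member whose summits lay outside the other treatment's peaks were added after their values were seen. Planned motif and gene comparisons need hg19 sequence or annotation and were not made. Coordinates count from 1.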

Additional observations from a re-analysis of the deposited data

How the results depend on the processing

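The number of shifted regions was 3025 at a gap of 20 bp, 631 at 50 bp, 164 at 100 bp, 930 with peaks of −log10 q of at least 10, and 275 with the libraries of each treatment within 10 bp of each other. It was 391 with a pileup of at least 20 reads in all 4 libraries, a limit chosen after seeing the data. Leaving out 1 library, so that its treatment was represented by 1 summit, gave 5560 to 6079 regions. The rule then asks fewer summits to agree, and the regions with 1 peak per list also rose, from 38731 to between 40707 and 42259. The ratio to the other splits was 1.144 at 50 bp, 1.135 with peaks at least 150 bp wide and 0.986 with libraries within 10 bp. It lay between 1.049 and 1.112 at gaps of 20 and 100 bp and in the other alternatives to peaks and regions, and between 0.947 and 1.193 over gap limits of 1 to 200 bp. The share at the higher coordinate was 45.64% at 50 bp, 45.73% at 100 bp and 53.45% with libraries within 10 bp, and 49.28% to 51.56% with 1 library left out.

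Tunicamycin replicate 2 alone gave the members a median width of 217 bp, a percentile rank of 53.6 and a pileup of 18 reads. The 19 rank calls of limma became 0 with 1 prior spread for all regions (2694 at an unadjusted p under 0.05), 9 among regions with −log10 q of at least 10, 4 by the deposited fold and 3 to 26 with 1 library left out, with 3 (0 higher and 3 lower) without tunicamycin replicate 1 and 9 without tunicamycin replicate 2. With 1 library left out, the lone library is assumed to vary like the other treatment's pair. Both called members also lost their calls with 1 prior spread for all regions and by the deposited fold. Limma made 0 width calls in every setting run, with 1620 to 2443 regions at an unadjusted p under 0.05. Deviations of same-numbered libraries were nearly uncorrelated, at -0.002 for summits, 0.011 for rank scores and 0.011 for log2 widths. These correlations cannot tell whether same-numbered libraries were prepared together. With the replicate number as a block limma made 27 rank calls (16 higher, 11 lower) and 0 width calls, and both called members passed. The direction of the gaps of the named regions is fixed by the way members were chosen, so recalculating them is no check of stability. The cause of these changes was not tested. The median member had a pileup of 15 to 18 reads by library; how precisely such pileups place a summit was not tested.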
